A study of Mus musculus with 107 samples.

Results

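The vesicle release machinery is described here as the 62 genes on the array whose symbols belong to the synaptotagmin, complexin, VAMP, syntaxin, syntaxin-binding, SNAP, synapsin, RIM and Munc13 families, out of 18193 genes measured. They comprise 16 synaptotagmins (Syt), 4 complexins (Cplx), 7 vesicle SNAREs (Vamp), 18 target SNAREs (Stx and Snap), 6 syntaxin-binding genes (Stxbp), 3 synapsins (Syn) and 8 active zone priming genes (Rims and Unc13). Members were picked by symbol, but the members and the gene lists used below were chosen with earlier results of these data known. Their 149 probe sets with 1 symbol were reduced to 1 per gene, the one with the highest mean over all arrays, and 43 members had several.

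Translating ribosome affinity purification (TRAP) pulls ribosomes, with the mRNA they carry, out of whole tissue from mice in which a bacterial artificial chromosome (BAC) directs a ribosome tag to 1 cell population. Affymetrix arrays measured 54 TRAP preparations of 17 neuronal populations, 22 of 7 glial populations, and 31 samples of unbound RNA, the RNA left in the tissue lysate after purification. Cerebellar neurons were Purkinje neurons (driver pcp2, lines DR166 and DR168, 6 arrays), granule neurons (neurod1, JP241), Golgi neurons (grm2, JP77), unipolar brush neurons (grp, JP25) and stellate and basket neurons (lypd6, JP48). Cholinergic neurons of motor brainstem, spinal cord, basal forebrain and striatum all came from 1 chat line (DW167). Medium spiny neurons came from a drd1 line (CP73) and a drd2 line (CP101). Cortical neurons were those of layer 5a (TS88), layer 5b (glt25d2, DU9) and layer 6 (ntsr1, TS16), and the Cck+ (GM391), Cort+ (GM130) and Pnoc+ (GM64) neurons. Glia were astrocytes of cortex (aldh1l1, lines JD130 and JD133, 4 arrays) and cerebellum (JD130), Bergmann glia (septin4, DS152), mature oligodendrocytes (cmtm5, JD307) of both regions and mixed oligodendroglia (olig2, JD97) of both regions. Populations without a number here had 3 arrays. Unbound RNA came from brainstem, spinal cord and basal forebrain (3 arrays each), striatum (6), cerebellum (7) and cortex (9). Most populations rest on a single BAC line, so a property of that line and of the cell type cannot be told apart. Age, sex and strain are not given in the sources used here.

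As background, a synaptic vesicle fuses when its SNARE protein (a VAMP) zips together with target SNAREs of the plasma membrane (a syntaxin and a SNAP). Sec1/Munc18 proteins (Stxbp) hold and guide the syntaxin, Munc13 and RIM proteins prime the vesicle at the active zone, and synapsins tether vesicles in the reserve pool. Synaptotagmins sense the calcium that enters with an action potential, and complexins clamp and then assist the assembled SNARE complex. Other members of the same families serve constitutive secretion, endosomes and the Golgi in every cell, and Snap23, Vamp3, Stx2 and Stxbp3 are known from secretion outside neurons.

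Promoter sequence was available from RefSeq (GRCm38.p6) for 47 of the 62 members, as 59 windows of 250 bases before to 50 bases after a gene start. The 9 letters TTCAGCACC, which are part of the element bound by the neuronal gene repressor REST, were searched on both strands. They occurred in 122 of all 32851 windows (0.371%), and among the members in those of Syn1, which tethers vesicles, and Unc13a, which primes them. The letters TGACGTCA, a palindrome known as the cyclic AMP response element, were in 588 windows (1.79%), among the members those of Syn1 and Stxbp3. Both windows with the first motif are shown, because Syn1 was among the members called higher in neurons than in glia and Unc13a was the priming gene seen in the fewest populations apart from Unc13d. Capitals mark the motifs. In Syn1 (chrX:20920869-20921168, minus strand) TTCAGCACC begins 232 bases and TGACGTCA 159 bases before the start, and in Unc13a (chr8:71671708-71672007, minus strand) the first motif lies on the opposite strand, beginning at base 22 after the start. A match describes these letters and is not a measured binding site.
Syn1 promoter: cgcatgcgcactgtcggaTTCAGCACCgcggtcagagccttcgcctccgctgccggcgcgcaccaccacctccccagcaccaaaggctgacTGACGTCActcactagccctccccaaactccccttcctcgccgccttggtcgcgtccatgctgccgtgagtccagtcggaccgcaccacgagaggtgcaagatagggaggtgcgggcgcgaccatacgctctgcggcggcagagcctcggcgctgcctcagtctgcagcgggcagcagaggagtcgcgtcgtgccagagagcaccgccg
Unc13a promoter: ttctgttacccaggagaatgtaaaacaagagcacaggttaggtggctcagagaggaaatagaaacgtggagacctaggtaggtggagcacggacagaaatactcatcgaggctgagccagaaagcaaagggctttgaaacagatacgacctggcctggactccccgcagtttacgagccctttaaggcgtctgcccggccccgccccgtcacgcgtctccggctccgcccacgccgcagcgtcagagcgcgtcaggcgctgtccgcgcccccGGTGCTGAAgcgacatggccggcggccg

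Values below are log2 intensities after scaling each group on the array's biotinylated control probe sets, and a value of 6 (an intensity of 64) was taken as the lower limit of expression. Control means differed between groups before scaling (10.13 to 11.999), and 25.8% to 41.6% of an array's values lay at its minimum. The authors normalized each group on its own, so group and normalization set cannot be told apart, and all comparisons were repeated with quantile normalization over all arrays. Of 1043 combinations of a member and a population at 6 or more, 105 (10.1%) had identical values in every replicate, which narrows the spread those tests see. Calls required a change of at least 2-fold together with a limma p under 0.05 after Benjamini-Hochberg adjustment over all genes tested. Levels of different genes come from different probe sets and are not set against each other. Fewer cells of a type and less RNA per cell cannot be told apart in these samples.

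The defining markers of most populations were present: both cholinergic markers were above 6 in all 4 cholinergic populations (list means 9.60 to 10.89), all 3 Purkinje markers were above 6 in Purkinje neurons, and all 7 oligodendrocyte markers were above 6 in the 4 oligodendroglial populations. Several TRAP preparations also carried markers of other cells. All 8 astrocyte markers were above 6 in layer 5a neurons (list mean 12.63) and unipolar brush neurons (11.61), against 3 of 8 in Purkinje neurons (5.86). Layer 5a neurons also held all 6 microglia and macrophage markers (10.48, against 6.12 in unbound cortex), and layer 5b neurons held 4 of 5 vascular markers (6.92). The 8 pan-neuronal markers averaged 7.31 to 10.49 in the 7 glial populations, with 5 to 8 of them above 6. The part of such RNA in the results below was not tested.

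Of the 62 members, 56 reached 6 in at least 1 population and 22 did so in all 24. The 22 included Cplx1, Snap25, Vamp2, Syt1, Rims1 and Syn2 as well as carriers of general membrane traffic such as Vamp4, Vamp7, Stx7 and Stx12. Cplx4, Stx11, Stx19, Syt6, Syt8 and Syt10 stayed under 6 in every population. Unc13d, a Munc13 relative known from immune cell secretion, reached 6 in granule neurons alone. Vamp4, an endosomal and Golgi SNARE, stood within 11.19 to 13.17 in all 17 neuronal populations and 11.71 to 13.02 in the 7 glial ones. Snap47, a SNAP relative found on internal membranes, was as even among neurons, at 13.96 to 15.48.

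In each family other members ranged widely. The largest range among target SNAREs was that of Stx1a, the plasma membrane syntaxin of synapses, whose population means ran between 2.51 in Purkinje neurons and 14.34 in layer 5a neurons. Among vesicle SNAREs it was Vamp8, known from endosomes and secretory granules (1.82 in Cck+ neurons, 11.96 in cerebellar astrocytes). Syt17 had the widest range of the synaptotagmins, with 1.96 in Bergmann glia and 12.41 in layer 5a neurons. Syn1 led the synapsins, with 2.62 in cortical astrocytes and 13.79 in layer 5a neurons. Stxbp6, also called amisyn, which binds the syntaxin complex, lay between 2.02 in granule neurons and 12.54 in Cort+ neurons. Cplx3, a complexin known from retinal ribbon synapses, was at 1.59 in mixed oligodendroglia of cerebellum and at 9.55 in Pnoc+ neurons. Unc13c, the Munc13 form known from cerebellum, was at 5.70 in Pnoc+ neurons and at 13.37 in granule neurons. The heat map of all expressed members shows these genes as rows of mixed colour among rows that are nearly even.

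**Figure D1:**
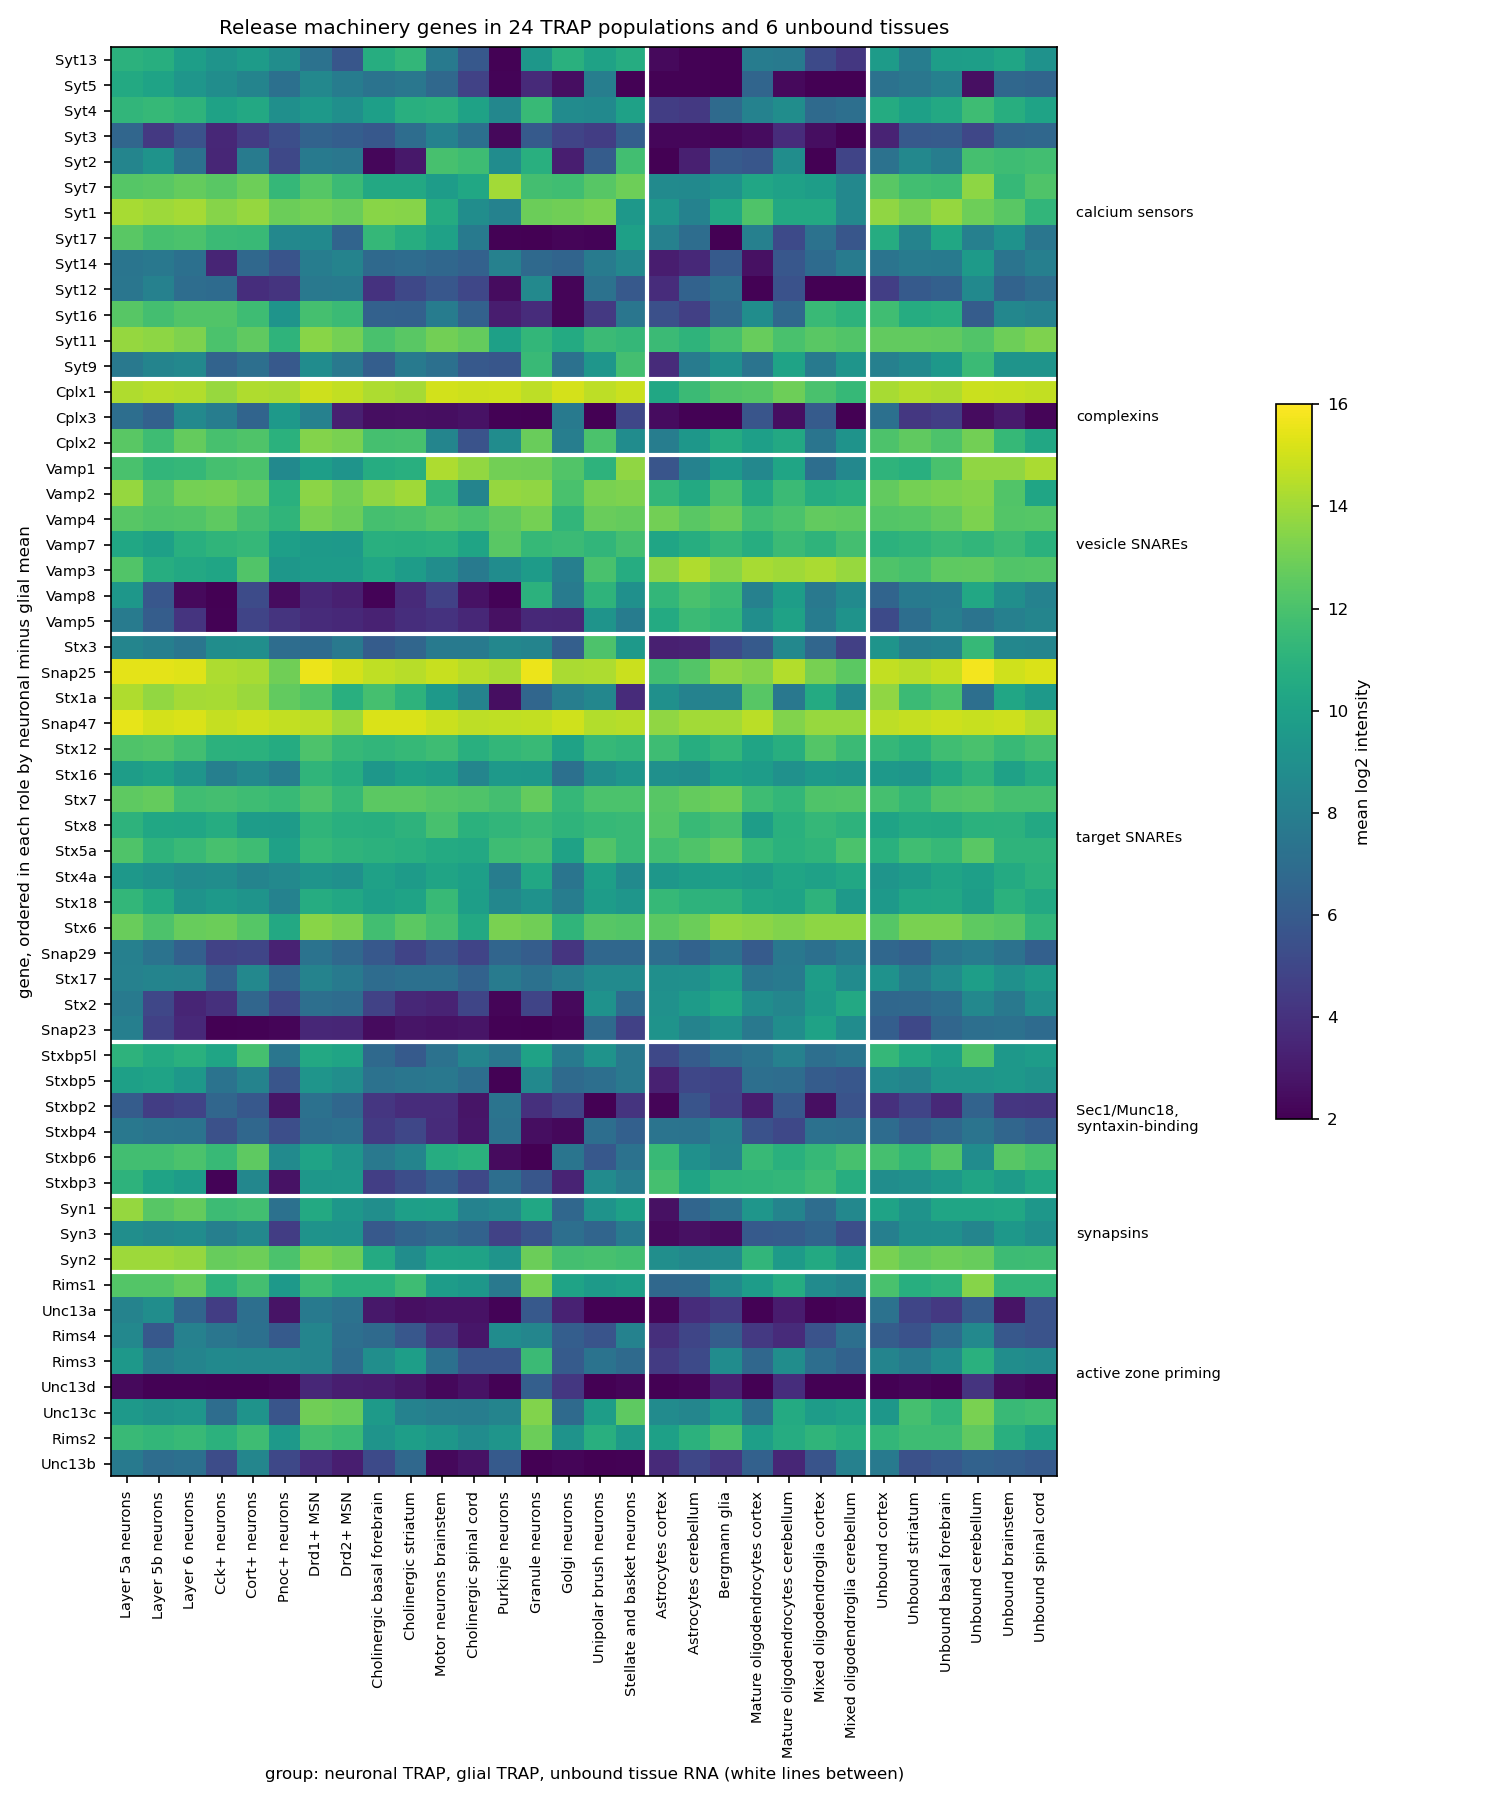
Mean log2 intensity (colour, from 2 to 16) of the 56 members that reached 6 in at least 1 TRAP population, in rows ordered by role, over 17 neuronal, 7 glial and 6 unbound groups in columns. Cplx1 and Snap25 are bright across the neuronal columns, Stx1a and Syt17 are darker in most cerebellar than in cortical neuron columns, and Snap23 is dark in nearly all neuronal columns and bright in glia.

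Neurons were compared with glia over population means (17 against 7), so that the spread is that between populations. Of 56 members tested, 18 were called higher in neurons and 8 lower, under both scalings, where 11.4% and 11.7% of all 12391 genes tested were called in these directions. The higher calls were 7 of 13 synaptotagmins, all 3 synapsins, 1 of 3 complexins, 2 of 7 VAMPs, 2 of 16 target SNAREs, 2 of 6 syntaxin-binding genes and 1 of 8 priming genes. Of 18 core genes of fast synaptic release, 9 were called higher and none lower, with a median difference of 1.86, against 0.09 over all genes tested. Of 36 other synaptic vesicle and active zone genes outside these families, 23 were called higher and 1 lower (median 2.41).

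Cplx1, a complexin of fast synapses, separated the classes without overlap. It stood at 13.85 to 15.10 (median 14.60) in the 17 neuronal populations, against 10.34 to 12.92 (median 11.99) in the 7 glial ones. Its difference was 2.76 (SE 0.24, adjusted p = 9.1e-08), a 6.78-fold change of intensity, with 14.58 ± 0.36 in neurons against 11.81 ± 0.82 in glia (SD over populations). Vamp1, the vesicle SNARE known from spinal and brainstem synapses, lay at 8.66 to 14.30 in neurons and 5.69 to 10.26 in glia, and was at least 10.4-fold higher in neurons (difference 3.42, SE 0.65, adjusted p = 0.00043). Vamp2, its forebrain counterpart, lay at 8.33 to 13.99 in neurons and 10.46 to 11.98 in glia, so that the groups overlapped, and was 3.11-fold higher (adjusted p = 0.023). Snap25, the neuronal target SNARE, ranged over 12.99 to 15.59 in neurons and 11.74 to 14.39 in glia (3.22-fold higher, adjusted p = 0.00041).

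Calcium sensors gave the largest differences on the neuronal side. Syt13, an atypical synaptotagmin that does not bind calcium, averaged 8.89 ± 2.46 in neurons and 4.46 ± 2.58 in glia (at least 5.21-fold, adjusted p = 0.0026). Syt4, found on dense-core vesicles, averaged 10.05 ± 1.01 in neurons and 6.67 ± 1.71 in glia (at least 7.63-fold, adjusted p = 7.9e-05). Syt5 was also called higher (6.79 ± 2.75 against 2.66 ± 1.73, adjusted p = 0.0053). Syt3 was too, at 5.57 ± 1.45 in neurons and 2.48 ± 0.60 in glia (adjusted p = 0.00047), and with both means under 6 no fold is given. No glial population reached 6 for Syt3, so it was tested through neurons only and that filter favoured its direction. Syt1, the fast calcium sensor of forebrain synapses, was 5.66-fold higher (12.43 ± 1.90 against 9.93 ± 1.34, adjusted p = 0.013), though Purkinje neurons at 8.22 lay at the level of cerebellar astrocytes at 8.23. Syt2, the fast sensor of hindbrain and some inhibitory synapses, differed by 2.72 (7.40 ± 3.19 against 4.68 ± 2.48, adjusted p = 0.11) and was not called.

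All synapsins were higher in neurons. Syn1 averaged 10.06 ± 1.93 in neurons and 7.09 ± 2.19 in glia (at least 5.62-fold, adjusted p = 0.010), Syn2 was 5.14-fold higher (adjusted p = 0.0058) and Syn3 at least 2.24-fold (adjusted p = 0.0057). Of the priming genes only Rims1, an active zone scaffold, was called (10.84 ± 1.42 against 8.53 ± 1.45, 4.96-fold, adjusted p = 0.0062). Stx1a was not called, at 10.35 ± 3.65 in neurons and 9.22 ± 1.68 in glia (difference 1.13, adjusted p = 0.55), its neuronal spread being among the widest of the members. Cplx2 (1.70, adjusted p = 0.13), Cplx3 (1.90, 0.19), Rims3 (1.22, 0.20), Unc13a (1.83, 0.15), Unc13b (-0.58, 0.66), Unc13c (0.23, 0.87) and Rims2 (-0.28, 0.70) missed the threshold as well, each given with its adjusted p.

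The 8 members lower in neurons held 5 of the 8 genes listed for plasma membrane fusion outside neurons. Another gene of that list, Stx3, was called higher. Vamp3 (cellubrevin), the vesicle SNARE of recycling endosomes, stood at 7.72 to 12.20 in neurons and 13.53 to 14.31 in glia without overlap, a 15.2-fold difference (-3.93, SE 0.48, adjusted p = 3.6e-06). Snap23, the SNAP-25 relative of non-neuronal cells, averaged 3.41 ± 1.77 in neurons and 8.84 ± 0.75 in glia (at least 6.37-fold, adjusted p = 6.3e-06). Only layer 5a neurons (8.03) and unipolar brush neurons (6.85) reached 6 for Snap23, the 2 neuronal populations with the most astrocyte marker signal. Vamp5 (myobrevin), first described in muscle and not on that list, averaged 4.60 ± 1.99 in neurons and 9.92 ± 1.31 in glia (at least 11.3-fold, adjusted p = 3.8e-05). Stx2, a plasma membrane syntaxin, averaged 5.17 ± 1.97 in neurons and 9.50 ± 0.75 in glia (at least 7.99-fold, adjusted p = 0.00016). Stxbp3, the Munc18 relative of non-neuronal secretion, averaged 6.90 ± 2.76 in neurons and 11.14 ± 0.57 in glia (at least 11.1-fold, adjusted p = 0.0025). Vamp8 was at least 6.91-fold lower (adjusted p = 0.0058), the endosomal Stx6 2.07-fold (adjusted p = 0.029) and the autophagy syntaxin Stx17 2.21-fold (adjusted p = 0.044), the last 2 calls being lost when single populations were left out. Another probe set of Stx6 had the opposite sign, as had another of Stx3, which was called higher (at least 2.95-fold). With the further demand that the higher side exceed unbound RNA, 4 higher and 7 lower calls were left. Among those lost were Syt1, Vamp1, Vamp2, Snap25, Syn2 and Rims1. Shares over all genes were not computed under this demand, here or in the comparisons below.

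**Figure D2:**
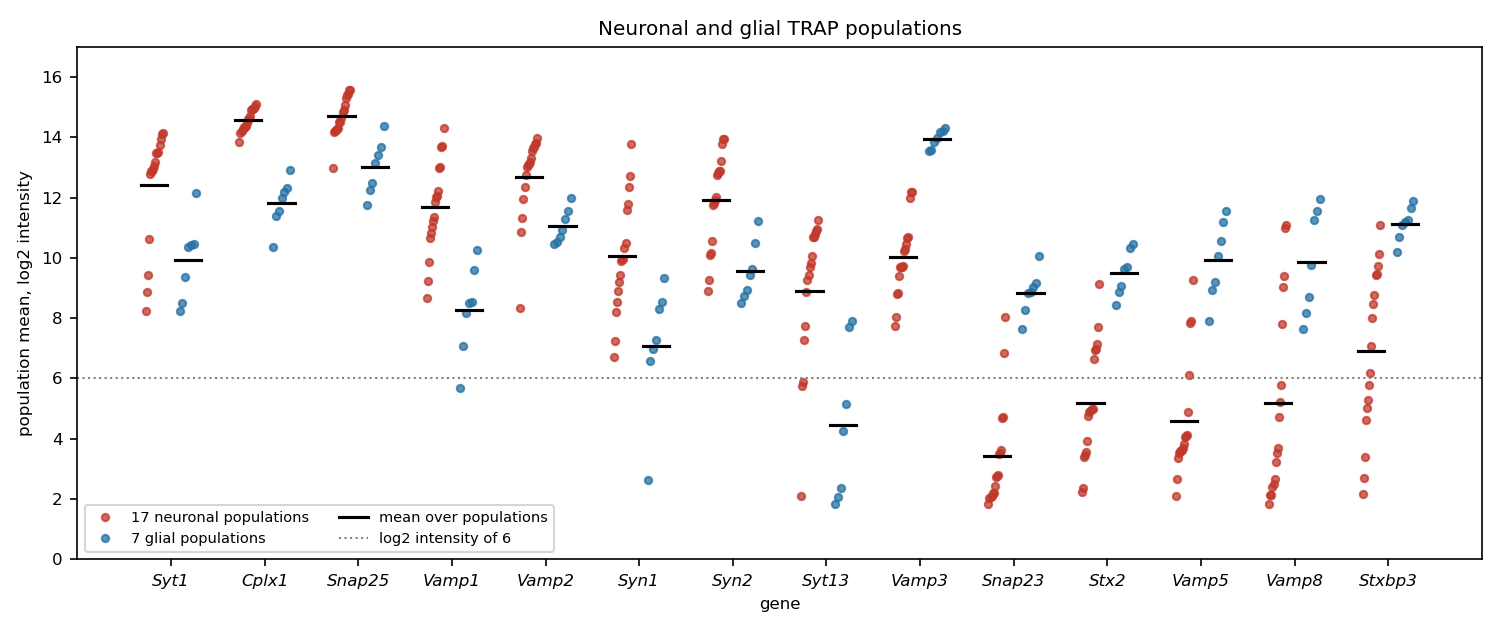
Mean log2 intensity of 14 members in each TRAP population, with the 17 neuronal populations at the left of each pair and the 7 glial populations at the right. Horizontal bars are class means and the dotted line is the lower limit of 6. For Cplx1 and Vamp3 the classes do not overlap, at 13.85 to 15.10 against 10.34 to 12.92 and at 7.72 to 12.20 against 13.53 to 14.31.

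Among glia, 52 members were tested between astroglia (3 populations) and oligodendroglia (4). None was called higher and 3 were called lower under both scalings, where 4.43% and 6.55% of all genes were called higher and lower. Syt16, an atypical synaptotagmin, was at least 9.81-fold lower in astroglia (5.60 ± 1.05 against 9.54 ± 2.18, adjusted p = 0.020). Syn3 stood at 2.50 ± 0.14 in astroglia and 5.96 ± 0.48 in oligodendroglia (difference -3.46, adjusted p = 0.010). It was tested only because some oligodendroglial populations reached 6, so that filter favoured the direction of its difference. Syt4 was at least 2.78-fold lower (5.22 ± 1.39 against 7.75 ± 0.94, adjusted p = 0.033). None of the 3 overlapped between the groups, but without the cortical or without the cerebellar astrocytes 1 call was left. Of 35 other synaptic vesicle and active zone genes, 11 were called lower in astroglia and none higher (median difference -1.89). The mean level of 8 pan-neuronal markers was 7.31 to 8.27 in astroglia and 8.73 to 10.49 in oligodendroglia, and the part of neuronal RNA in the 3 calls was not tested.

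Mixed oligodendroglia were compared with mature oligodendrocytes over arrays. Of 51 members, 10 were called higher and 13 lower in the mixed populations, where 28.1% and 10.7% of all genes were called in these directions. Under quantile normalization the split was 6 higher and 17 lower, and the median of all genes, 0.46 with control scaling, was 0.01. Core release genes made up 8 of the 13 lower calls. Syt16 had 11.61, 11.45 and 11.33 in mixed oligodendroglia of cortex and 11.07 in all 3 arrays of cerebellum. It had 8.89, 9.07 and 8.63 in mature oligodendrocytes of cortex and 7.24, 6.50 and 6.50 of cerebellum, all below the mixed ones. It was 11.005-fold higher (3.46, SE 0.23, adjusted p = 5.1e-24). Stx17 was 3.19-fold higher, also without overlap (adjusted p = 6.6e-11).

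The lower side named neuronal release genes. Cplx2, the complexin of forebrain synapses, had 6.73, 7.18 and 8.39 in mixed oligodendroglia of cortex and 9.08, 8.98 and 9.49 of cerebellum. It had 10.36, 9.74 and 9.61 in mature oligodendrocytes of cortex and 10.56, 10.79 and 9.96 of cerebellum. The groups did not overlap, and the difference was -1.86 (3.64-fold, adjusted p = 1.1e-16). Syt1 (3.47-fold), Rims1 (3.23-fold), Vamp1 (3.04-fold), Snap25 (2.12-fold), Syn1 (2.09-fold) and Rims3 (2.06-fold) were also called lower, and Syt2 was at least 2.48-fold lower. The pan-neuronal markers moved with them, with list means of 9.78 and 8.73 in mixed oligodendroglia of cortex and cerebellum, against 10.30 and 10.49 in the mature populations, all or 6 of the 8 being above 6. Their part in the result was not tested. These p-values measure the spread between preparations of a population and not that between the populations averaged. With population means as the unit limma called none of the 51 members, and 5 had an unadjusted p under 0.05 (smallest adjusted p 0.26).

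The mixed-minus-mature difference was itself compared between regions, cortex minus cerebellum. It was called higher in cortex for 18 of 51 members and lower for 12, where 23.1% and 13.9% of all genes were called, and under quantile normalization for 12 and 13. Unc13b, a Munc13 form of wide expression, differed by -0.67 in cortex and 4.63 in cerebellum (interaction -5.30). Unc13c differed by 2.59 in cortex and -0.55 in cerebellum (interaction 3.15). Stx1a differed by -1.86 in cortex and 0.99 in cerebellum, with 12.39 in mature oligodendrocytes of cortex, where unbound cortex had 13.65. The mature cortex population also had the highest glial Syt1 (12.14) and Syn1 (9.34), and Vamp1, Cplx1 and Snap25 were highest among glia in the mature cerebellar population (10.26, 12.92 and 14.39). That population held all 3 Purkinje markers (list mean 13.76) and all 3 granule neuron markers (11.49), against 10.69 and 8.89 in the mixed cerebellar one, and their part in these levels was not tested.

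Cerebellar neurons (5 populations) were compared with cortical neurons (6) over population means. Of 56 members, 3 were called higher and 13 lower in cerebellar neurons, under both scalings, where 6.55% and 15.4% of all 11551 genes were called. The median member differed by -0.38 and the median gene by -0.32. With quantile normalization the median gene differed by 0.10 and the share of higher calls among all calls went to 49.9%, against 29.8% with control scaling, while the members gave 5 higher and 13 lower. Lower were 5 of 13 synaptotagmins, 2 of 3 synapsins, 2 of 6 syntaxin-binding genes, 2 of 8 priming genes, Cplx3 and Stx1a, and 7 of the 18 core genes were among them.

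Stx1a gave the largest difference of any member. Its population means were 2.51 in Purkinje, 6.65 in granule, 8.02 in Golgi, 8.47 in unipolar brush and 3.71 in stellate and basket neurons. In cortex they were 14.34, 13.73 and 14.09 in layers 5a, 5b and 6 and 14.16, 13.89 and 12.62 in Cck+, Cort+ and Pnoc+ neurons. The groups did not overlap, and Stx1a was at least 109.8-fold lower in cerebellar neurons (-7.94, SE 0.89, adjusted p = 2e-06). Unbound RNA had the same order of regions, with 7.10 in cerebellum and 13.65 in cortex (means of 7 and 9 arrays). The partner target SNARE Snap25 differed by 0.03 (adjusted p = 0.97), at 14.64 ± 0.59 in cerebellar and 14.60 ± 0.97 in cortical neurons.

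Syt16 was at least 39.0-fold lower without overlap (4.19 ± 2.00 against 11.58 ± 1.17, adjusted p = 2.8e-06). Stxbp6 was at least 28.2-fold lower, also without overlap (5.00 ± 2.63 against 11.37 ± 1.35, adjusted p = 2e-05). Syt17 was at least 23.3-fold lower (adjusted p = 0.00014). It overlapped because stellate and basket neurons had 9.95, the other 4 cerebellar populations 2.04 to 2.21 and Pnoc+ neurons 8.53. Syt5 was at least 6.33-fold lower (3.66 ± 2.49 against 9.05 ± 1.21, adjusted p = 0.00039), with unipolar brush neurons apart at 7.96.

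Core genes followed with smaller differences. Syt1 was 5.21-fold lower (11.34 ± 2.33 against 13.72 ± 0.49, adjusted p = 0.024). With the probe set used, this rested on Purkinje (8.22) and stellate and basket neurons (9.44): without the first the difference was -1.60 (adjusted p = 0.092) and without the second -1.91 (0.078). Other probe sets of Syt1 gave larger differences over all 11 populations, -5.90 and -6.06. Syn2 was 3.25-fold lower (adjusted p = 0.019) and Syn1 6.18-fold (adjusted p = 0.047), and both calls were lost without Purkinje neurons (adjusted p = 0.069 and 0.086). Cplx3 (adjusted p = 0.011), Unc13a (0.011) and Unc13b (0.0019) were also called lower, from population means near or under 6 in cerebellar neurons apart from Cplx3 in Golgi neurons (7.79). Cplx1 (0.57, adjusted p = 0.14), Vamp1 (1.40, 0.14), Vamp2 (0.53, 0.47), Cplx2 (-1.87, 0.079), Syt2 (1.28, 0.52), Syn3 (-1.54, 0.11), Rims1 (-1.52, 0.12), Rims2 (-0.72, 0.37), Rims3 (-1.09, 0.39) and Unc13c (1.85, 0.16) were not called.

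The 3 higher calls of 56 members were a smaller share than the 6.55% of all genes, so no common theme is read from them. Stx8, an endosomal syntaxin, stood at 11.09 to 11.51 in cerebellar neurons and 9.71 to 11.04 in cortical ones, 2.05-fold higher without overlap (adjusted p = 0.023). Vamp7, the VAMP of late endosomes and lysosomes, was 2.15-fold higher (11.69 ± 0.47 against 10.58 ± 0.60, adjusted p = 0.021). Vamp8 was at least 3.12-fold higher (8.21 ± 3.67 against 4.51 ± 2.89, adjusted p = 0.046), with unipolar brush (11.09) and granule neurons (10.98) at the top and Purkinje neurons (2.12) among the lowest. Its call was lost without any 1 of 9 of the 11 populations.

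**Figure D3:**
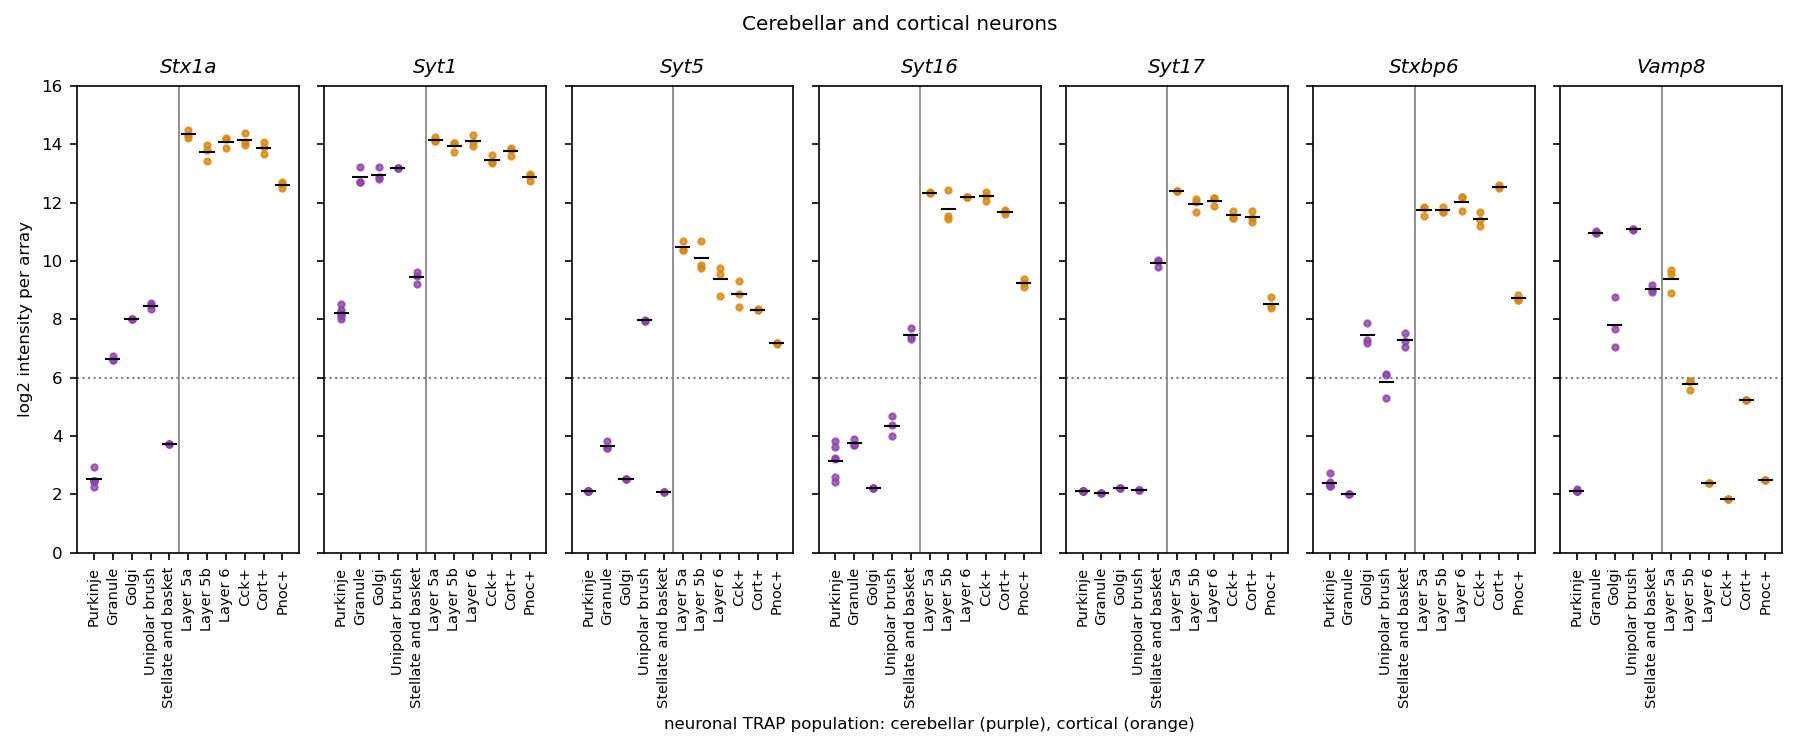
Log2 intensity of 7 members on each array of the cerebellar neurons (5 populations, left) and cortical neurons (6 populations, right), with the population along the horizontal axis. Stx1a, Syt16 and Stxbp6 lie lower in every cerebellar population than in every cortical one, Syt17 is high in stellate and basket neurons alone among cerebellar populations, and Vamp8 spans 2.12 to 11.09 within the cerebellum.

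Within the cerebellum, Purkinje neurons stood apart. They were compared with the 12 arrays of the other 4 neuronal populations, averaged by population. Of 54 members, 5 were called higher and 29 lower in Purkinje neurons, where 19.6% and 28.0% of all 10386 genes were called, and 4 and 27 held under both scalings. The median member differed by -1.19, against -0.06 for all genes. Lower were 10 of 13 synaptotagmins, 5 of 6 priming genes and 10 of the 16 core genes tested.

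Syt1 had 8.02 to 8.52 (median 8.18) in the 6 Purkinje arrays. It had 12.69, 12.70 and 13.21 in granule, 12.81, 13.21 and 12.87 in Golgi, 13.18, 13.18 and 13.20 in unipolar brush and 9.21, 9.48 and 9.64 in stellate and basket neurons. Every Purkinje array was below every other array, a 14.8-fold difference (-3.89, SE 0.18, adjusted p = 2.1e-35). Syt2 showed another order. It had 8.44 to 9.41 (median 8.61) in Purkinje neurons, 10.80, 10.69 and 11.05 in granule, 3.19 in all 3 arrays of Golgi, 5.28, 6.37 and 6.64 in unipolar brush and 11.74, 11.74 and 11.78 in stellate and basket neurons. Thus, with the probe sets used, stellate and basket neurons had the highest Syt2 and low Syt1, and Golgi neurons had high Syt1 and Syt2 under 6. Syt1 has 4 probe sets, and their mean turned the sign of its granule neuron difference, given below. The Syt1 levels here are those of 1 probe set.

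Syt7, the slow high-affinity calcium sensor, was higher in Purkinje neurons, at 13.85 to 14.35 (median 13.99). It had 11.70, 11.63 and 12.07 in granule, 11.49, 12.16 and 11.41 in Golgi, 12.34, 12.39 and 12.42 in unipolar brush and 12.86, 12.98 and 12.88 in stellate and basket neurons. The groups did not overlap (3.63-fold, adjusted p = 2.2e-18). Stxbp2, the Munc18 relative known from blood cell granules, had 6.98 to 7.59 in Purkinje neurons and 1.98 to 4.76 in the others (at least 2.57-fold higher, adjusted p = 6.9e-57). It was tested only because Purkinje neurons reached the expression limit, so that filter fixed the direction of its difference. Rims4, a short RIM, was at least 3.00-fold and Stxbp4 at least 1.90-fold higher. Stx6 was 2.02-fold higher, but not with quantile normalization (adjusted p = 5.3e-07 with control scaling), and another of its probe sets had the opposite sign (-3.09).

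Syt13 lay at 2.10 to 2.12 on the 6 Purkinje arrays and at 9.10 to 11.39 on the others, at least 19.2-fold lower (adjusted p = 5.4e-47). Vamp8 behaved alike, at 2.11 to 2.17 against 7.04 to 11.11 (at least 13.3-fold lower, adjusted p = 1.4e-56). Syt9, at least 15.7-fold lower (adjusted p = 6.5e-38), and Stxbp5 (tomosyn), which competes with VAMP for the target SNAREs (at least 2.96-fold, adjusted p = 6.4e-47), came next. Stx1a was at least 1.63-fold lower. Of the core genes, Rims1 was 8.001-fold, Syn2 7.02-fold, Unc13c 5.08-fold, Cplx2 3.03-fold and Rims2 2.51-fold lower, and Rims3 at least 3.84-fold. Cplx1 (0.17, adjusted p = 0.23), Vamp1 (0.55, 0.047), Vamp2 (0.78, 0.0011), Snap25 (-0.55, 0.0026), Syt2 (0.84, 8.3e-06) and Syn1 (-0.51, 0.10) did not reach 2-fold. With population means as the unit, 4 calls were left, Syt13, Vamp8, Stxbp5 and Syn2, all lower. Syt13, Vamp8 and Stxbp5 were under 6 on every Purkinje array, so they were tested only through the other populations. That filter favoured their direction, as it did for Syt9, Rims3 and Stx1a. Requiring the higher side to exceed unbound RNA left 4 higher and 4 lower.

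Granule neurons, set against the other 15 cerebellar neuron arrays in the same way, were high for most priming genes. Of 54 members, 20 were called higher and 8 lower, where 27.9% and 19.8% of all genes were called, and 18 and 8 held under both scalings. The median gene differed by 0.32, and by 0.02 with quantile normalization, which gave 20 higher and 13 lower members. All 6 priming genes tested, 6 of 13 synaptotagmins and 10 of the 16 core genes were among the higher ones. Of the 6 priming genes, 5 held under both scalings. Unc13d was tested only because granule neurons reached 6, so that filter fixed the direction of its difference. Rims4 had its highest population mean in Purkinje neurons (8.79).

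Rims3 had 11.39, 11.45 and 11.84 in granule neurons. Its values were 5.44 to 5.89 in Purkinje neurons, 6.00 in all 3 Golgi arrays, 7.14, 7.83 and 7.08 in unipolar brush and 6.11, 7.26 and 7.19 in stellate and basket neurons. The difference was 5.10 (SE 0.29, at least 32.1-fold, adjusted p = 3e-28). Unc13c had 13.39, 13.58 and 13.15 in granule neurons and 12.62, 12.50 and 12.54 in stellate and basket neurons, with unipolar brush (9.77, 9.67 and 10.01), Purkinje (7.999 to 8.44) and Golgi neurons (6.42, 7.35 and 6.76) below. It was 15.9-fold higher than the average of the others (adjusted p = 8.8e-28), although stellate and basket neurons came close. Rims1 had 13.06, 13.12 and 13.10 in granule neurons and 7.49 to 10.13 in the rest (13.7-fold, adjusted p = 2.6e-30). Rims2 had 12.51, 12.91 and 13.07 in granule neurons, against 8.74 to 10.96 (8.63-fold, adjusted p = 4.6e-26).

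Cplx2 had 12.71, 12.59 and 13.09 in granule neurons. It had 11.96, 12.03 and 12.16 in unipolar brush, 8.56 to 9.29 in Purkinje, 8.07, 7.81 and 8.07 in Golgi and 8.16, 9.10 and 9.14 in stellate and basket neurons. Both glutamatergic cell types of the granular layer were therefore above the GABAergic ones, and granule neurons were 10.5-fold above the average of the others (adjusted p = 5.8e-29). Syt12, an atypical synaptotagmin, was at least 4.77-fold higher (8.16, 8.62 and 8.96 in granule neurons against 2.21 to 7.58). Unc13d had 6.01, 6.34 and 6.34, against 1.57 to 4.27 elsewhere in the cerebellum (at least 1.17-fold). Syt1 (3.77-fold), Syn1 (3.30-fold), Syn2 (3.12-fold) and Syt2 (at least 6.41-fold) were called higher, and Snap25 was 2.23-fold higher but not with quantile normalization. For Syt1 the mean of all its probe sets gave -0.17 (adjusted p = 0.44). Stxbp6, Stxbp4, Vamp5, Cplx3, Syt17, Snap23, Stx17 and Stxbp3 were called lower. With population means as the unit limma called none of the 54 members, 11 having an unadjusted p under 0.05 (smallest adjusted p 0.055).

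The 4 cholinergic populations came from 1 driver line and so compare regions for 1 transmitter. Neurons of motor brainstem and spinal cord (caudal, 6 arrays) were set against those of basal forebrain and striatum (rostral, 6 arrays). Of 45 members, 6 were called higher and 12 lower in the caudal neurons under both scalings, where 14.6% and 23.4% of all 9642 genes were called. The median gene differed by -0.28, and by -0.04 with quantile normalization, under which 7 members were higher and 12 lower and the share of higher calls over all genes was 49.0%, against 38.4%. Of 16 core genes tested, 2 were higher and 7 lower.

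Both fast calcium sensors changed, in opposite directions. Syt2 had 12.11, 11.72 and 11.97 in motor brainstem and 11.63 in all 3 spinal arrays. It had 2.27 in all 3 basal forebrain arrays and 2.94, 2.81 and 2.94 in striatum, near the array minimum. It was at least 55.1-fold higher in the caudal neurons (9.20, SE 0.20, adjusted p = 1.9e-59). Both rostral populations were under 6 for Syt2, so it was tested through the caudal side only and that filter fixed its direction. Syt1 had 11.29, 10.29 and 10.32 in motor brainstem and 8.81, 8.97 and 8.79 in spinal cord, against 13.63, 13.54 and 13.37 in basal forebrain and 13.73, 13.70 and 12.97 in striatum. Every caudal array was below every rostral one, a 13.4-fold difference (-3.74, SE 0.20, adjusted p = 9.2e-30).

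Of 5 vesicle SNAREs tested, 1 was called higher (Vamp1) and 2 lower (Vamp2 and Vamp3). Vamp1 had 14.20, 14.36 and 14.36 in motor brainstem and 13.62, 13.75 and 13.74 in spinal cord, against 10.59, 10.50 and 10.86 in basal forebrain and 10.77, 10.78 and 10.95 in striatum. It was 9.60-fold higher without overlap (3.26, SE 0.30, adjusted p = 8e-17). Vamp2 had 9.88, 12.11 and 11.99 in motor brainstem and 8.36, 8.83 and 7.81 in spinal cord, against 13.56, 13.31 and 14.07 in basal forebrain and 14.06, 14.06 and 13.84 in striatum. It was 15.9-fold lower without overlap (-3.99, SE 0.26, adjusted p = 2.6e-25).

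Of the complexins, Cplx2 had 8.36 in all 3 brainstem arrays and 5.59 in all 3 spinal arrays, against 11.73, 11.51 and 12.44 in basal forebrain and 11.78, 11.78 and 12.22 in striatum. It was at least 26.6-fold lower (-4.94, SE 0.17, adjusted p = 2.3e-43). Cplx1 had 14.86 to 15.29 in brainstem and 14.92 to 14.97 in spinal cord, against 14.25 to 14.32 in basal forebrain and at most 14.20 in striatum. It did not overlap, but its 0.78 (adjusted p = 4.5e-06) fell short of 2-fold, whereas quantile normalization gave 1.09. Of 13 target SNAREs tested, 1 was called higher (Stx3) and 1 lower (Stx1a). Stx1a was 5.78-fold lower (8.93 ± 0.43 against 11.46 ± 0.15, pooled SD within populations, adjusted p = 3.7e-17), while Snap25 differed by 0.10 (14.67 ± 0.06 against 14.57 ± 0.03, adjusted p = 0.65).

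Other members were called as well. Stxbp6 was 7.13-fold higher (10.82 ± 0.18 against 7.98 ± 0.53, adjusted p = 3.1e-20), Stx3 2.59-fold, Stxbp5l, a tomosyn relative, at least 2.65-fold and Syt3 at least 2.29-fold. Syt13 was at least 17.3-fold lower (6.81 ± 0.18 against 10.98 ± 0.05), Rims3 at least 6.86-fold, Rims1 3.28-fold, Vamp3 3.33-fold, Syt17 4.37-fold and Syt5 at least 2.10-fold. Unc13b and Rims4 were lower from rostral means of 5.94 and 6.33. Their caudal arrays were all under 6, so both were tested through the rostral side only, and that filter favoured their direction. The synapsins Syn1 (-0.31, adjusted p = 0.41), Syn2 (0.40, 0.095) and Syn3 (0.40, 0.032) were not called, nor were Rims2 (-0.44, 0.022) and Unc13c (-0.96, 4.1e-05). With the 4 population means as the unit, 3 calls were left, Syt2 higher and Cplx2 and Vamp2 lower. With the higher side required to exceed unbound RNA, 3 higher and 8 lower calls were left.

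Unbound RNA of whole tissue, which comes from all cells, was compared between brainstem and spinal cord (6 arrays) and the forebrain tissues (18 arrays of basal forebrain, striatum and cortex). Of 54 members, 9 were called higher and 12 lower in brainstem and cord, where 21.1% and 8.80% of all genes were called, and 6 and 12 held under both scalings (6 and 14 with quantile normalization alone). Syt2, Vamp1, Syt1, Vamp2 and Cplx2 were called in the same directions as in the cholinergic neurons. Syt2 had 11.29, 11.77 and 11.84 in brainstem and 12.27, 11.30 and 11.76 in spinal cord, against 8.06, 8.02 and 7.77 in basal forebrain, 7.39 to 9.04 (median 8.66) in striatum and 6.53 to 8.21 (median 7.15) in cortex. It was 13.9-fold higher without overlap (adjusted p = 2.6e-36). Vamp1 was 6.28-fold higher without overlap (13.25 to 14.42 against 9.47 to 12.89, adjusted p = 4.2e-16).

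On the lower side, Cplx2 had 11.50, 11.35 and 11.30 in brainstem and 10.54, 10.50 and 10.08 in spinal cord, against 11.57 to 12.78 in the forebrain tissues (2.61-fold, no overlap, adjusted p = 2.6e-14). Syt1 (3.29-fold) and Vamp2 (3.39-fold) were lower with overlap of the ranges, as was Stx1a (5.69-fold). Syt16 was 6.52-fold lower without overlap. Of 7 genes listed for fusion outside neurons, 4 were called higher: Stx2 (2.80-fold), Vamp8 (2.26-fold), Stx4a (2.07-fold) and Snap23, the last with control scaling alone. The oligodendrocyte marker list stood at 13.27 and 13.75 in unbound brainstem and spinal cord, against 10.66 to 12.11 in the forebrain tissues. Its part in these 4 calls was not tested.

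**Figure D4:**
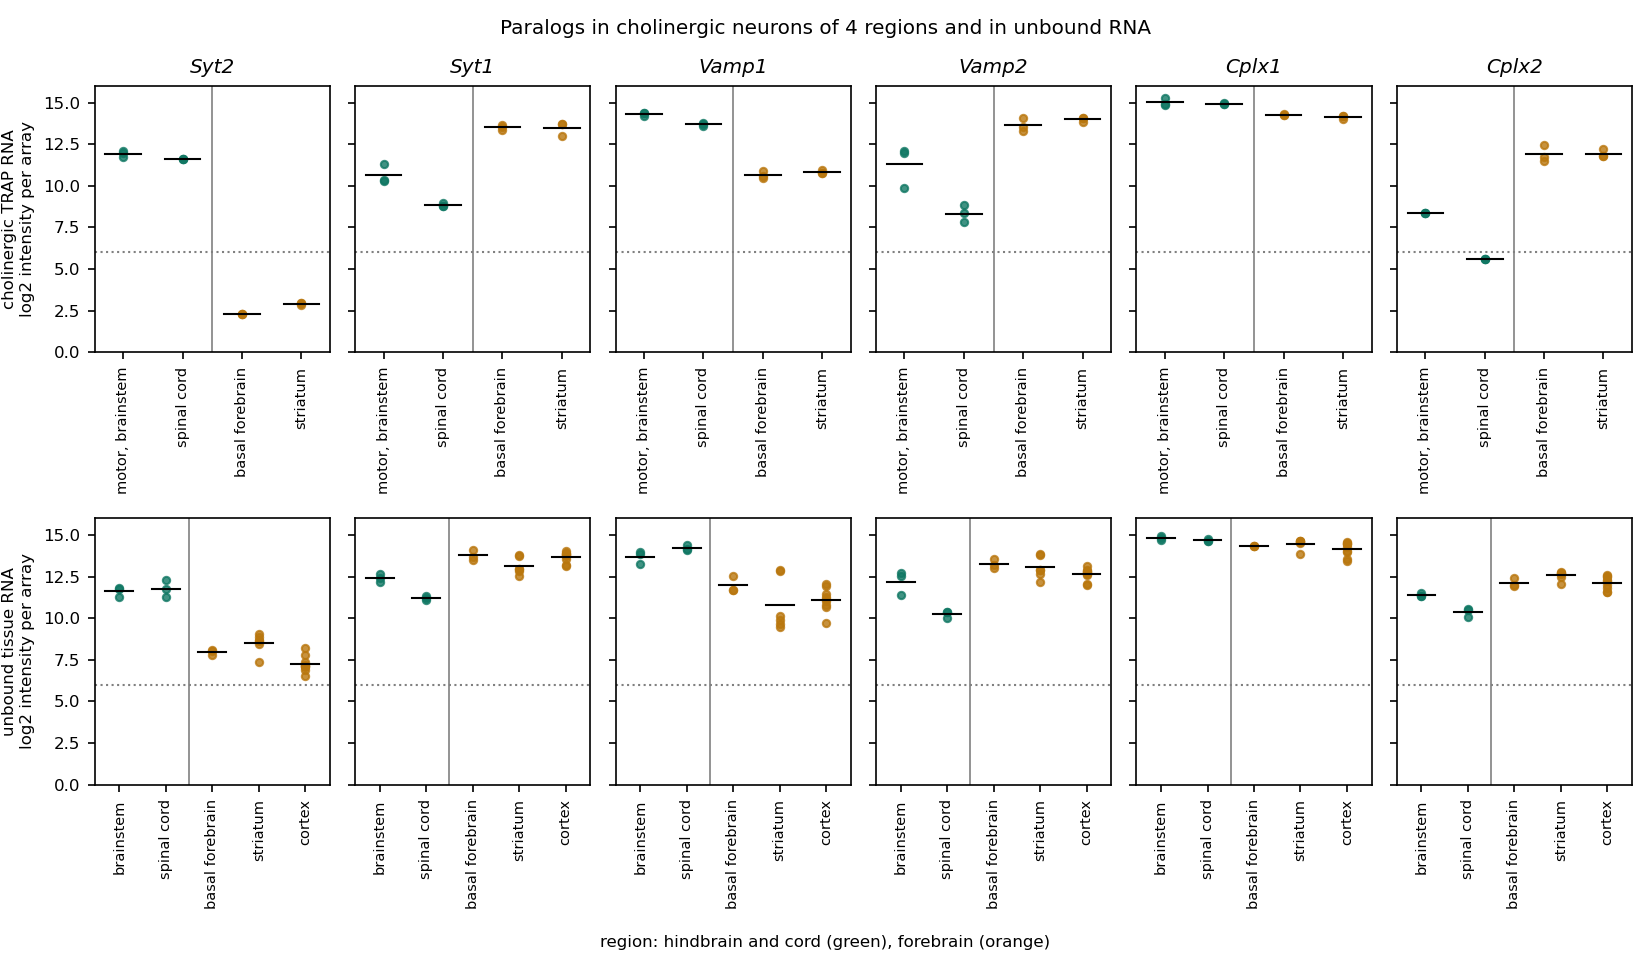
Log2 intensity of Syt2, Syt1, Vamp1, Vamp2, Cplx1 and Cplx2 on each array of the 4 cholinergic TRAP populations (top, motor brainstem and spinal cord left of basal forebrain and striatum) and of 5 unbound tissues (bottom, brainstem and spinal cord left of the forebrain tissues). Syt2 and Vamp1 are high on the left of each panel, and Syt1, Vamp2 and Cplx2 are high on the right, with smaller steps in unbound RNA than in TRAP RNA for Syt2 (11.71 against 7.91, and 11.78 against 2.58).

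Medium spiny neurons (Drd1+ and Drd2+, 6 arrays) were set against the deep-layer cortical neurons (layers 5a, 5b and 6, 9 arrays). Of 55 members, 5 were called higher and 16 lower in medium spiny neurons, under both scalings, where 13.2% and 26.5% of all 10952 genes were called. The median gene differed by -0.22, and by 0.08 with quantile normalization, which called 8 members higher and 17 lower. Unc13c had 13.16, 12.83 and 12.93 in Drd1+ and 12.84, 12.89 and 12.48 in Drd2+ neurons. It had 9.64, 9.22 and 9.73 in layer 5a, 9.22, 9.22 and 9.13 in layer 5b and 9.28, 9.16 and 9.67 in layer 6. It was 11.3-fold higher without overlap (adjusted p = 2.1e-29). Cplx2 had 13.34, 13.63 and 13.29 in Drd1+ and 13.17 on all 3 arrays of Drd2+ neurons, against 11.46 to 12.82 (median 12.36) in the deep layers. It was 2.06-fold higher without overlap (adjusted p = 9.2e-09), and fell just short of 2-fold without Drd1+ replicate 2 (0.99). Stx16, a Golgi syntaxin, was 2.34-fold higher, Stxbp2 at least 1.88-fold and Stx2 at least 1.39-fold.

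The lower calls took in 5 of the synaptotagmins, 4 VAMPs and Syn1. Syt17 had 8.67 on all 3 Drd1+ arrays and 6.12, 6.67 and 6.67 in Drd2+ neurons, against 11.68 to 12.41 (median 12.14) in the deep layers. It was 23.5-fold lower without overlap (adjusted p = 1.5e-30). Syn1 had 10.92, 10.95 and 9.60 in Drd1+ and 9.75, 9.10 and 9.40 in Drd2+ neurons, against 12.33 to 13.94 (median 12.52) in the deep layers. All 6 medium spiny arrays were below all 9 deep-layer arrays (8.01-fold, adjusted p = 5.7e-15). Syt13 was at least 15.0-fold lower (6.50 ± 0.29 against 10.54 ± 0.17).

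Stx1a was 5.83-fold lower (11.51 ± 0.34 against 14.06 ± 0.21, adjusted p = 2.6e-19) and Vamp1 3.96-fold (9.54 ± 0.25 against 11.53 ± 0.10, adjusted p = 6.3e-10), neither with overlap. Stxbp6 (4.30-fold), Syt4 (3.92-fold), Syt5 (3.44-fold), Vamp3 (2.68-fold), Syt1 (2.21-fold) and Rims1 (2.18-fold) were lower too, and Unc13b at least 2.49-fold. Cplx3 was called lower over both populations together, although they differed from each other, with 8.22, 8.21 and 7.97 in Drd1+ neurons and 3.21 on all 3 Drd2+ arrays. The list of glutamatergic markers stood at 6.70 in Drd1+ and 3.62 in Drd2+ neurons beside this, and its part was not tested. Snap25 (-0.05, adjusted p = 0.81), Vamp2 (0.21, 0.42), Cplx1 (0.42, 0.0049) and Syn2 (-0.84, 0.00012) did not reach 2-fold. With population means as the unit limma called none of the 55 members, 7 having an unadjusted p under 0.05 (smallest adjusted p 0.064).

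The Cort+ and Pnoc+ populations of cortex (6 arrays), whose driver genes are known from interneurons, were set against the same deep-layer arrays. None of 55 members was called higher and 32 were called lower, where 1.77% and 66.6% of all 10814 genes were called. The scaling decided most of this. The median gene differed by -1.39 with control scaling and by -0.08 with quantile normalization. The latter called 5 members higher and 9 lower, and 1344 and 1819 of all genes. The same 9 members were lower under both scalings, as were 1819 of all 10814 genes, a share near that of the members. The 9 members were Syn1 (10.97-fold), Snap25 (3.45-fold), Stxbp3 (at least 8.50-fold), Stxbp5 (at least 6.47-fold), Syt12, Snap29, Unc13a, Snap23 and Vamp8. With population means as the unit 4 calls were left, all lower, in Snap25, Snap29, Stxbp3 and Syt11.

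Syn1 had 11.79, 11.72 and 11.82 in Cort+ neurons and 7.50, 7.25 and 6.94 in Pnoc+ neurons, so that most of its difference from the deep layers (12.33 to 13.94) lay in Pnoc+ neurons. Snap25 had 14.16, 14.11 and 14.31 in Cort+ and 12.98, 12.99 and 13.00 in Pnoc+ neurons, against 15.30 to 15.57 in the deep layers, and another of its probe sets had the opposite sign. Pnoc+ neurons had the lowest Snap25, Vamp1 and Unc13c of the 17 neuronal populations and the highest Cplx3 (9.55, 9.49 and 9.61). Cort+ neurons alone gave 4 members higher and 14 lower, but the share over all genes was not computed for this setting.

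TRAP RNA was compared with unbound RNA of the same tissue in each of the 24 populations, which share their unbound arrays within a tissue. Of 1249 pairs of a member and a population, 134 were called higher and 539 lower in TRAP RNA, where 18.4% and 32.4% of all 240884 pairs were called. Under both scalings 104 and 405 held. The median gene shifted by -1.96 in Golgi neurons to 1.31 in layer 5a neurons with control scaling. The layer 5a population had 21 of 55 members higher and none lower, 7 of the 21 under both scalings. Over all genes it had 6396 of 10540 higher and 244 lower, a larger share higher than among the members. The median member there differed by 0.77.

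In glia the synaptic families were below the tissue around them. Of the glial pairs, 64 of 77 for synaptotagmins, 17 of 17 for complexins, 20 of 21 for synapsins and 43 of 49 for priming genes were called lower in TRAP RNA, and 1, 0, 0 and 1 were called higher. Target SNAREs gave 26 higher and 30 lower of 112, and VAMPs 18 higher and 16 lower of 49. Over all genes, lower calls ran from 2073 of 10058 in mixed oligodendroglia of cortex to 5439 of 10213 in mature oligodendrocytes of cerebellum. Higher calls ran from 860 of 10213 in that mature population to 3337 of 10097 in cortical astrocytes. The target SNARE shares lay inside these ranges. Cplx1, Snap25, Syt1, Syt2, Syt7, Vamp1 and Vamp2 were called lower in all 7 glial populations. In cortical astrocytes Cplx1 averaged 10.34 ± 0.57 in TRAP RNA and 14.14 ± 0.43 in unbound RNA (SD, 4 and 9 arrays, difference -3.80, SE 0.16, adjusted p = 1.9e-38). In the 17 neuronal populations Cplx1 was called in none, with differences between -0.33 and 0.46.

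Some members showed the reverse. Snap23 was called higher in all 7 glial populations and lower in 12 of the 14 neuronal ones in which it was tested. It reached 6 in 2 neuronal populations. In the others it was tested only because unbound RNA reached 6, so that filter fixed the direction there. In mixed oligodendroglia of cortex it averaged 10.06 ± 0.28 in TRAP RNA and 6.18 ± 1.54 in unbound RNA (difference 3.88, adjusted p = 3.1e-12), and in granule neurons 2.02 ± 0.00 and 7.09 ± 0.88 (difference -5.07, adjusted p = 2.1e-16). Its only higher call among neurons was in layer 5a neurons (1.85). Vamp5 was higher in all 7 glial populations, by up to 5.42 in cortical astrocytes (10.55 ± 0.45 in TRAP RNA, 5.13 ± 0.32 in unbound RNA), and lower in 9 of 13 neuronal ones. The filter likewise fixed the direction for Vamp5 wherever TRAP RNA was under 6, and in cortex, where unbound RNA was under 6. Among neurons Vamp5 was higher in unipolar brush (1.86) and layer 5a neurons (2.70), both with all 8 astrocyte markers above 6. Stx2 was higher in 6 of 7 glial populations and lower in 12 of 17 neuronal ones, and Vamp3 was higher in 6 of 7 and lower in 14 of 17.

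Stxbp5l, Stx3, Stxbp5 and Syn3 were the members called lower most often, in 18, 17, 16 and 16 populations. Stx3, a syntaxin of ribbon synapses and of dendritic exocytosis, averaged 3.32 ± 0.00 in TRAP RNA of cerebellar astrocytes and 11.37 ± 0.47 in unbound cerebellum (difference -8.04, adjusted p = 2.4e-40). In unipolar brush neurons it averaged 12.09 ± 0.18 and 11.37 ± 0.47 (0.72, adjusted p = 0.030), the highest level of Stx3 among the 24 populations. Stx1a was called higher in 3 glial populations and lower in 3, and higher in unipolar brush neurons (8.47 ± 0.09 in TRAP RNA, 7.10 ± 0.63 in unbound RNA). Golgi neurons had 43 of 53 members lower, with a median member difference of -2.51 beside -1.96 for all genes. Pnoc+ neurons had 38 of 51 lower (-1.73 beside -1.25) and Purkinje neurons 36 of 52 (-2.92 beside -0.95). Over all genes, 7105 of 10093 were lower in Golgi, 5356 of 9207 in Pnoc+ and 5009 of 10189 in Purkinje neurons. In Purkinje neurons Syt1 averaged 8.22 ± 0.18 in TRAP RNA and 12.89 ± 0.12 in unbound cerebellum.

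**Figure D5:**
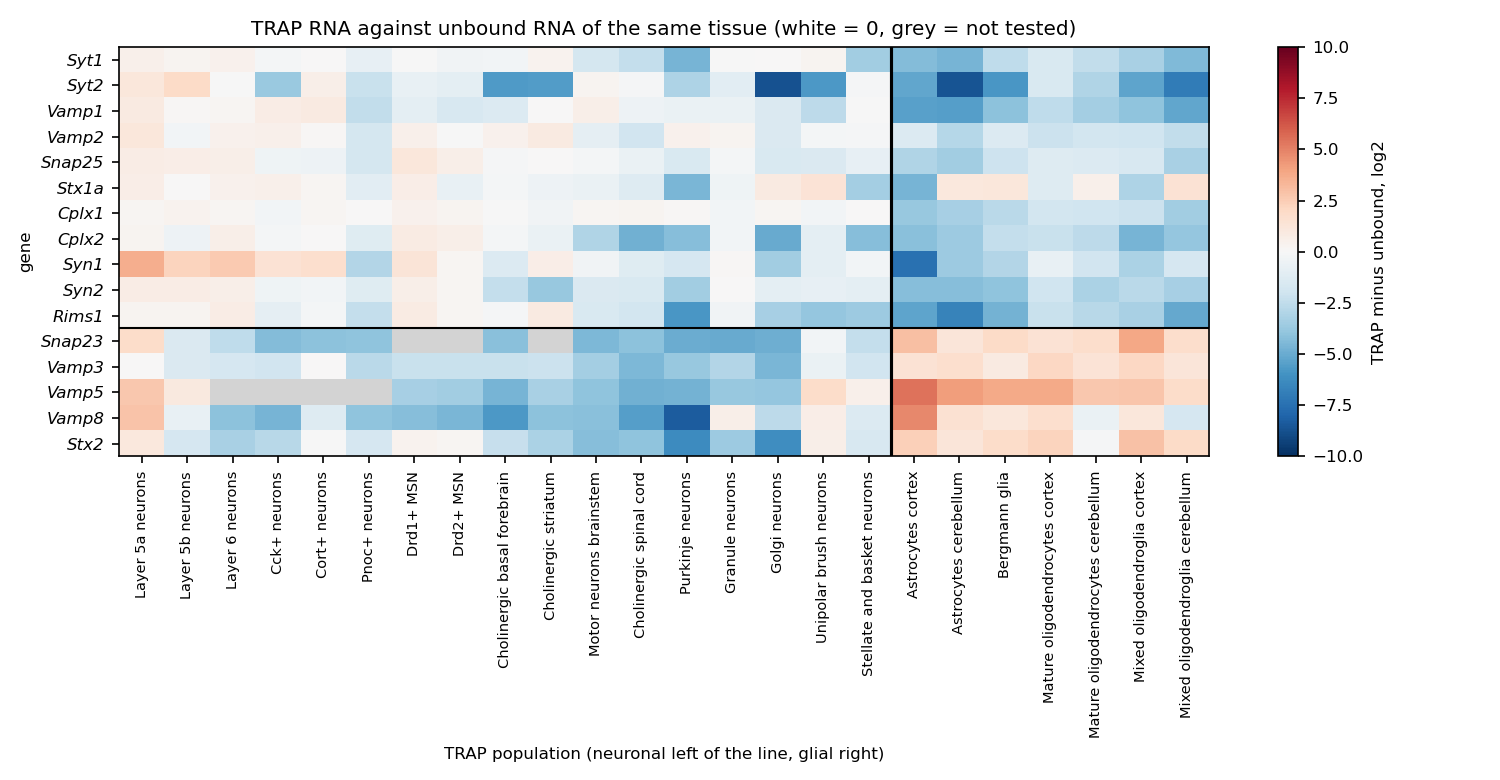
Difference in log2 intensity between TRAP and unbound RNA of the same tissue (colour, symmetrical about white at 0, with grey where not tested) for 16 members in rows and the 24 TRAP populations in columns. Snap23, Vamp5, Stx2 and Vamp3 are higher in the glial columns and lower in most neuronal ones, and Cplx1 is near 0 in neurons and between -3.80 and -1.82 in glia.

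Over the 17 neuronal populations, levels of several paralog pairs ran against each other, given here as descriptions over population means that share arrays, probe chemistry and scaling. Pearson's r was -0.56 for Syt1 with Syt2, -0.57 for Cplx1 with Cplx2 and -0.21 for Vamp1 with Vamp2. Over all 24 populations, glia included, the same pairs had r of -0.09, 0.29 and 0.30. Pairs across families ran together among neurons, with r of 0.60 for Syt2 with Vamp1 and 0.78 for Syt1 with Cplx2. Within the priming genes Rims1 and Rims3 had r of 0.77, and the synapsins Syn1 and Syn2 had 0.61. Snap25 and Snap23 had r of -0.53 over 24 populations and 0.37 over the 17 neuronal ones. Vamp3 and Snap23 had 0.89 and 0.61 over the same sets.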

How the data were processed

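RNA of 76 TRAP and 31 unbound samples was hybridised to Affymetrix arrays that carry 45101 probe sets. The deposited values are intensities that the authors normalized with GCRMA, per the submitters' processing notes (its version is not given in the sources used here). Replicates were normalized within their group, per the series text, which recommends further scaling on the biotinylated controls. Preparations were independent, per the same text. Amplification used a 2-cycle kit, per the labels' protocols.

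Each intensity was raised to at least 1, taken to log2, and shifted so that 18 biotinylated control probe sets had 1 common mean over the groups. Platform annotation named 34945 probe sets by 1 symbol, 932 by several and 9224 by none. Each of 18193 genes was read from its brightest probe set. Genes were tested where a group on either side of a comparison reached 6. Differences were tested with limma 3.58.1 (R 4.3.3, with the data.table package, version 1.17.8), with Benjamini-Hochberg adjustment over all genes tested. Neurons against glia, cerebellar against cortical neurons and astroglia against oligodendroglia were fitted on population means. The other comparisons were fitted on arrays, with populations weighted equally, so their p-values measure the spread between preparations only. The SD printed is that over populations in the first 3 and the pooled SD within populations in the rest. A fold whose lower side was under 6 was computed against 6 and is written as at least that value. The number of arrays limits precision.

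The members and lists were chosen with earlier results of these data known. Genes named were 18 core release genes, the 8 members whose called differences were largest each way, the 3 members called most often in each direction against unbound RNA, and the member with the largest range in each role. The levels of Vamp4 and Snap47, Stx3 in neurons against glia, Vamp3 in cholinergic and medium spiny neurons, Syt5 and Syt17 in cholinergic neurons, Syt4 and Syt5 in medium spiny neurons, Stx4a in unbound tissue, Syt11 in Cort+ and Pnoc+ neurons and Syt7 against unbound RNA were named after their values were seen. Replicate numbers were not used as pairs: the correlation of deviations in 31 preparations of bound and unbound RNA was -0.247 to 0.557 (median 0.0970), over 0.1 in 15. In cholinergic brainstem (0.440 to 0.557) and basal forebrain (0.277 to 0.429), however, all 3 preparations were over 0.1. On simulated data, the array-level fit of cholinergic neurons (8538 genes) recovered 99 of 100 genes changed by 1.5 and 100 of 100 changed by 3 on the log2 scale, with 1 false call. The fit of neurons against glia (11544 genes) recovered 32 and 88 of 100, with 11 false calls. Spread between populations was simulated for neurons and glia only, and neither simulation held identical replicates. The cholinergic simulation therefore cannot show how array-level calls hold against the spread between populations. Alternatives were quantile normalization, no further scaling, the mean of all probe sets, other expression limits, empirical Bayes without a trend, a replicate block, fits over all arrays, a demand that TRAP exceed unbound RNA, and leaving out arrays, populations or regions. Population omissions among cerebellar neurons, Cort+ and Pnoc+ neurons taken alone, and calls under both scalings were added after seeing the data.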

Additional observations from a re-analysis of the deposited data

Results flagged for a closer look

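Among 72 combinations of a core gene and a group of 4 to 10 arrays, 5 had 1 array with a large gap relative to the range of its group. Chance gives about 1 in 20 for values without ties. In unbound striatum the lowest Syt2 value was 7.39, with the nearest at 8.47, and the lowest Cplx1 value was 13.85, with the nearest at 14.49. Snap25 was 13.92 in Purkinje replicate 4, with the nearest at 14.23. In unbound cerebellum the lowest Rims3 value was 10.36, with the nearest at 10.84, and the highest Unc13a value was 6.11, with the others at 6.09. The Unc13a gap was small and was flagged only because the other arrays were identical.

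For 9 core genes the difference between mixed and mature oligodendroglia itself differed between cortex and cerebellum, tested as an interaction term in limma. The interaction, cortex minus cerebellum, was -5.30 for Unc13b, 3.15 for Unc13c, 2.86 for Rims3, -2.84 for Stx1a, -2.59 for Syn1, 1.61 for Snap25, 1.35 for Rims1, -1.21 for Cplx2 and 1.20 for Cplx1. Rims3 differed by 0.39 in cortex and -2.47 in cerebellum, Syn1 by -2.36 in cortex and 0.23 in cerebellum, and Snap25 by -0.28 in cortex and -1.89 in cerebellum.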

How the results depend on the processing

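Counts of members called are given with higher and lower calls in parentheses. Beyond the calls under either or both scalings, shares over all genes were not computed, so those counts have no background beside them. For Cort+ and Pnoc+ neurons against deep layers, quantile normalization gave 14 (5 and 9), calls under both scalings 9, Cort+ neurons alone 18 (4 and 14) and population means 4 (0 and 4), against 32. For medium spiny neurons, no further scaling gave 39 (1 and 38) and population means 0, against 21. The region interaction gave 18 (12 and 6) with the mean of all probe sets, against 30. A demand that the higher side exceed unbound RNA left 11 for neurons against glia, 10 for cerebellar neurons, 1 for astroglia, 11 for caudal cholinergic neurons, 8 for Purkinje neurons, 10 for granule neurons and 4 for mixed oligodendroglia. One fit over all arrays gave 31 (9 and 22) for cerebellar neurons and 25 (5 and 20) for astroglia. Population means gave 3 for caudal cholinergic, 4 for Purkinje and 0 for granule neurons and mixed oligodendroglia. Astroglia had 1 call without cortical astrocytes and 1 without cerebellar astrocytes.

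For Cort+ and Pnoc+ neurons, signs turned for Vamp1 (0.076) and Rims3 (1.39) under quantile normalization and for Vamp1 (0.52) and Unc13b (1.08) in Cort+ neurons alone. They also turned for Cplx2 in medium spiny neurons with no further scaling (-0.038), and, with the mean of all probe sets, for Syt1 in granule neurons (-0.17) and Unc13c in mixed oligodendroglia (-0.28). The cause was not tested. With a replicate block the counts were 18 for caudal cholinergic, 32 for Cort+ and Pnoc+, 35 for Purkinje, 27 for granule and 21 for medium spiny neurons, 23 for mixed oligodendroglia, 21 for unbound tissue and 30 for the interaction. TRAP vs unbound RNA gave 675 with the replicate block by number and 678 by preparation (consensus correlation 0.109), against 673.

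Leaving out 1 array at a time gave 25 to 26 calls for neurons against glia, 14 to 16 for cerebellar neurons, 3 to 3 for astroglia, 18 to 19 for caudal cholinergic neurons, 32 to 32 for Cort+ and Pnoc+ neurons, 33 to 35 for Purkinje, 28 to 30 for granule and 21 to 22 for medium spiny neurons, 21 to 25 for mixed oligodendroglia, 19 to 21 for unbound tissue, 26 to 31 for the interaction and 669 to 678 for TRAP vs unbound RNA. The share of higher calls among all genes called was 2.58% with control scaling and 42.5% with quantile normalization for Cort+ and Pnoc+ neurons, 58.5% and 45.6% for granule neurons, 33.3% and 50.5% for medium spiny neurons, 72.5% and 50.9% for mixed oligodendroglia, 70.6% and 52.2% for unbound tissue and 62.5% and 43.8% for the interaction. Of 211 further probe sets of named genes, 203 had the sign of the one used. Values near the array minimum limit differences of low genes to bounds.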
